A study of Mus musculus with 4 samples.

Results

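The endothelium of day 5 gastruloids was taken as 207 cells out of 7408 day 5 cells that passed the filters on cells, or 2.79% of them (95% exact binomial interval 2.43 to 3.20). These cells were chosen by their own transcripts. A cell was counted as a member if at least 1 unique molecular identifier (UMI, the tag that marks 1 captured RNA molecule) was found for at least 3 of the 6 genes *Cdh5*, *Pecam1*, *Tie1*, *Esam*, *Emcn* and *Tek*, and if it held fewer than 3 UMIs of *Pou5f1*, a pluripotency factor. The cell also had to hold at least 2000 UMIs and a share of mitochondrial transcripts under 20%. The members were compared with the other 7201 day 5 cells. Because the same cells served for the choice and for the comparison, the values of the 6 rule genes and of *Pou5f1* only describe the choice, and all differences between members and the other cells are descriptive.

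Gastruloids are aggregates of embryonic stem cells that form germ layer derivatives in culture. Here they were made from Zx1, a wild type mouse embryonic stem cell line, and treated with a pulse of the Wnt agonist CHIR99021. From day 4 they were shaken and supplied for a time with bFGF, VEGF and ascorbic acid. These factors had been left out again before day 11, so the libraries also differ in treatment. Cells of pooled gastruloids were captured with 10x Genomics 3' chemistry at days 4, 5, 6 and 11, in 1 library for each day. With 1 library a day no test between conditions can be made, the spread between gastruloids is not measured, and day and library cannot be told apart. Levels are therefore given as counts per 1000000 summed UMIs (CPM) with exact Poisson 95% intervals, and ratios with exact conditional 95% intervals. All intervals cover counting error only.

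Endothelial cells line blood vessels and the inside of the heart. In the mouse embryo they arise from mesoderm that carries the VEGF receptor Kdr. The ETS factor Etv2 is switched on transiently in these precursors and acts with Tal1, Lmo2 and other ETS and GATA factors on a shared set of vessel genes, and part of this mesoderm also gives rise to the first blood. Junction and surface proteins such as VE-cadherin, Claudin 5 and Endomucin build up as the cells form a vessel wall.

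The day 5 library held 7794 barcodes, of which 302 had too few UMIs and 170 too many mitochondrial transcripts. Members held 6380 to 116695 UMIs with a median of 37630.0, against 28241.0 in the other cells, a ratio of 1.33, and summed to 9539682 UMIs. Depth matters for a rule that counts detected genes. When every cell was thinned to 5000 UMIs before the rule, 20 of 7244 cells met it, or 0.276% (0.169 to 0.426). No member and 164 other cells were too shallow for this. The median mitochondrial share was 2.73% in members and 2.69% in the other cells. The 593 cells with the highest doublet scores, 8% of the library, included 36 members, which is 17.4% of members against 7.74% of the other cells. They were kept, and the day 5 share and the day 5 gene counts are also given without them. Day 5 shared 13, 19 and 23 barcodes with days 4, 6 and 11. 3 member barcodes occurred in another library, and 1 of these was a member there.

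The rule genes describe the choice and cannot check the label. *Esam*, a junctional adhesion molecule, was detected in 94.2% of members, *Cdh5*, which encodes VE-cadherin, in 80.2%, the angiopoietin receptor *Tek* in 76.3%, the platelet endothelial adhesion molecule *Pecam1* in 67.6% and the orphan receptor *Tie1* in 61.4%. *Emcn*, the endothelial sialomucin, was almost absent: 5 members held 1 UMI each. The only one of the fixed markers outside the rule, the transcription factor *Sox7*, was found in 75.8% of members and in 2.92% of the other cells, or in 22.2% and 0.654% after thinning to 5000 UMIs. The commonest set of rule genes was *Cdh5*, *Pecam1*, *Tie1*, *Esam* and *Tek* together, in 56 members, followed by *Cdh5*, *Esam* and *Tek* in 26. Only 1 member held all 6.

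RNA set free from broken cells can place stray UMIs in any droplet. As a background class, 1034 non-member cells with at least 3 of the 5 epithelial genes *Epcam*, *Cdh1*, *Foxa1*, *Foxa2* and *Cldn7* were used, with a median of 32248.5 UMIs. These cells also make RNA of their own, so a share in this class can hold both free RNA and their own RNA. *Cdh5* was detected in 0.870% of them. The same class held *Sox7* in 1.06%, *Fli1* in 1.45% and *Cldn5* in 1.16% of cells, but *Flt1* in 51.1%, *Ramp2* in 47.0% and *Sox17* in 59.9%. *Ctla2a*, at 921.8 CPM in members, was detected in 2.90% of the class. How much of the shares of *Flt1*, *Ramp2* and *Sox17* was free RNA was not tested, so they are not read as a background level. For these 3 genes the level says more than the share of positive cells.

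**Figure D1:**
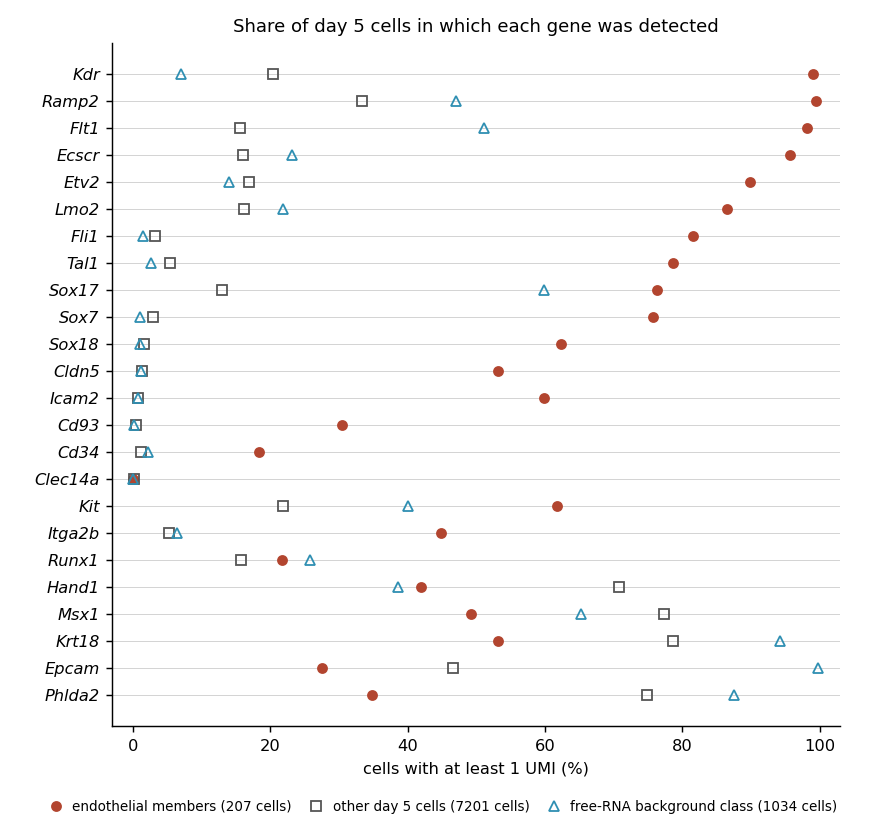
Share of day 5 cells with at least 1 UMI of each gene (horizontal axis, percent), without thinning. Shown are the 207 members (filled circles), the other 7201 cells (squares) and the 1034 epithelial cells of the background class (triangles), which also make RNA of their own. *Flt1* was detected in 98.1% of members and 15.6% of the other cells, *Clec14a* in no member, and *Epcam* in 27.5% of members against 99.8% of the background class, which was chosen by this gene among others.

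Of 7775 genes that reached 10 CPM in members or in the other cells, 318 were at least 2-fold higher in members (4.09% of the genes) and 273 at least 2-fold lower (3.51%). The median log2 ratio over all of these genes was -0.05. Of the 318 genes, 216 reached 10 CPM only in members and so could not have been counted as lower. The same holds within the lists. For the endothelial, vessel subtype, signalling, matrix and blood lists with higher genes, the number that entered in this way is given beside the counts. The median over all genes of the list is given there too. Without the cells of highest doublet score, 392 genes were higher and 367 lower. Without the 13 members that held at least 3 of the 5 epithelial genes, the counts were 348 and 314.

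The promoters of 4 genes are shown before their levels, since *Etv2*, *Kdr* and *Flt1* were all over 10-fold higher in members and *Emcn* was the rule gene still missing. Each sequence is the 250 bases before the start of the gene in RefSeq, assembly GRCm38.p6, read 5' to 3' on the strand of the gene. Capitals mark the ETS cores AGGAAG and CCGGAA, searched on both strands. *Etv2* lies on the minus strand with its window at chr7:30635853-30636102, *Kdr* on the minus strand at chr5:75978456-75978705, *Flt1* on the minus strand at chr5:147726012-147726261, and *Emcn* on the plus strand at chr3:137340828-137341077. All 4 windows lie directly upstream of the first exon of the RefSeq gene.
Etv2: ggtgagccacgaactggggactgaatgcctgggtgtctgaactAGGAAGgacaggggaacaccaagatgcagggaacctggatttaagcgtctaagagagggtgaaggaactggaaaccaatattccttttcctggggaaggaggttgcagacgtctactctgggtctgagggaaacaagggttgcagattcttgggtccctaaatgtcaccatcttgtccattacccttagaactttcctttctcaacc
Kdr: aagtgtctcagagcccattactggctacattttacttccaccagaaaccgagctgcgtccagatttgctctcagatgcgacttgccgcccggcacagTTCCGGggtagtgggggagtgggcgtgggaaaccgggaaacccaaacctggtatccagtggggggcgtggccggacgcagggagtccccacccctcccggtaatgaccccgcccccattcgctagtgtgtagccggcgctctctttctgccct
Flt1: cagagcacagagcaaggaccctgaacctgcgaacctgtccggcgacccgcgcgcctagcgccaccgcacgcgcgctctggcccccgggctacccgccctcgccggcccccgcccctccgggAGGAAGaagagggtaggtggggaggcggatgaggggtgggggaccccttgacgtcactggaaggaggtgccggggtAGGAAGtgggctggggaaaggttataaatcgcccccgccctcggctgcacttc
Emcn: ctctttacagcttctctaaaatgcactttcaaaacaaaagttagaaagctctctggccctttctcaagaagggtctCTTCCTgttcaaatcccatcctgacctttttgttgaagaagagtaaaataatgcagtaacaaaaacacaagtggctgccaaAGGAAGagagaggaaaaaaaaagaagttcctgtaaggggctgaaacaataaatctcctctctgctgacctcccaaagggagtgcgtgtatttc
*Etv2* and *Flt1* held 1 and 2 copies of AGGAAG on the strand shown, *Kdr* held CCGGAA on the reverse strand, and *Emcn* held AGGAAG once on each strand. One or both cores occurred in 38.1% of the 27025 gene symbols with such a window, in 26 of the 46 windows found for the 75 genes of the 6 endothelial lists (56.5%), and in 9 of the 14 found for the 25 highest genes outside the lists (64.3%). The GATA core AGATAA was held by 10.2% of all windows, 6.52% of those of the endothelial lists and 14.3% of those of the 25 genes. The SOX core AACAAT was held by 9.67%, 10.9% and 28.6%. These are letter matches and not binding sites.

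VEGF receptors carry the signal that endothelial precursors depend on. 4 of 5 genes of this list were at least 2-fold higher, and 1 of the 5 reached 10 CPM only in members (median log2 ratio of the list 3.60). *Kdr*, the main signalling receptor, stood at 247.2 CPM (237.3 to 257.4) in members and 18.2 in the other cells, a ratio of 13.6 (12.9 to 14.3). Single members held 0 to 61 *Kdr* UMIs with a median of 9.0, and 2 members held none, while 5734 of the other cells held none. *Flt1*, which encodes a receptor that binds VEGF tightly, was at 158.1 CPM against 12.1, a ratio of 13.0 (12.2 to 13.9). *Flt4*, the receptor for VEGF-C, was at 34.6 against 1.13 and was detected in 62.3% of members. The co-receptor *Nrp2* was 4.10-fold higher (3.69 to 4.55), whereas *Nrp1* was at 29.2 CPM in members and 44.7 in the other cells. After thinning to 5000 UMIs, *Kdr* was detected in 71.5% of members, 6.11% of the other cells and 1.36% of the background class. The ligands differed less. Of 7 VEGF and angiopoietin genes only *Vegfa* and *Vegfb* reached 10 CPM, at 25.1 and 40.5 CPM in members, and both were within 2-fold of the other cells (median log2 ratio -0.13).

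ETS factors share a DNA-binding domain and act on many vessel genes. 6 of the 7 that reached 10 CPM were at least 2-fold higher in members (median log2 ratio 2.98, and 2.94 over all 8 of the list), but 5 of the 7 reached 10 CPM only in members. *Etv2*, the pioneer of the lineage, was at 144.9 CPM (137.3 to 152.7) against 13.1, a ratio of 11.0 (10.3 to 11.8). *Etv2* was detected in 186 members, or 89.9%, beside 16.9% of the other cells and 14.0% of the background class, and after thinning in 44.0%, 4.92% and 2.52%. Single members held a range of 0 to 49 UMIs and a median of 5.0. It was not limited to members: 1404 day 5 cells held an *Etv2* UMI and 13.2% of these were members, and of the 106 cells with 10 or more *Etv2* UMIs 46.2% were members. *Fli1* was at 56.8 against 1.76 CPM, a ratio of 32.3 (28.4 to 36.9), and *Erg* at 10.9 against 0.185. *Ets1*, *Ets2* and *Elk3* were 7.92-, 8.66- and 8.29-fold higher. *Etv6* was at 20.9 against 10.9 CPM, and *Elf1* stayed under 10 CPM in both.

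Among 17 other transcription factors of the endothelium, 13 reached 10 CPM, 10 of them only in members, and 11 were at least 2-fold higher, with a median log2 ratio of 3.02 (2.36 over all 17). The Sox F factors, which work together in vessel formation, were all in this group. *Sox18* was at 45.3 against 1.04 CPM (ratio 43.7, 37.2 to 51.4), *Sox7* at 43.6 against 1.64 (26.6, 23.0 to 30.6) and *Sox17*, which also marks endoderm, at 59.4 against 14.5 (4.11, 3.75 to 4.49). The genes of the haemato-endothelial complex were high as well: *Lmo2* at 152.6 CPM (ratio 11.1), *Tal1* at 58.4 (14.7), *Gata2* at 32.0 (6.01) and *Lyl1* at 25.9 (18.7). *Hhex*, a homeobox gene of early endothelium and endoderm, was at 80.6 CPM (8.89). *Klf2*, the flow-responsive factor, was at 8.81 CPM in members and 17.6 in the other cells, within 2-fold.

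**Figure D2:**
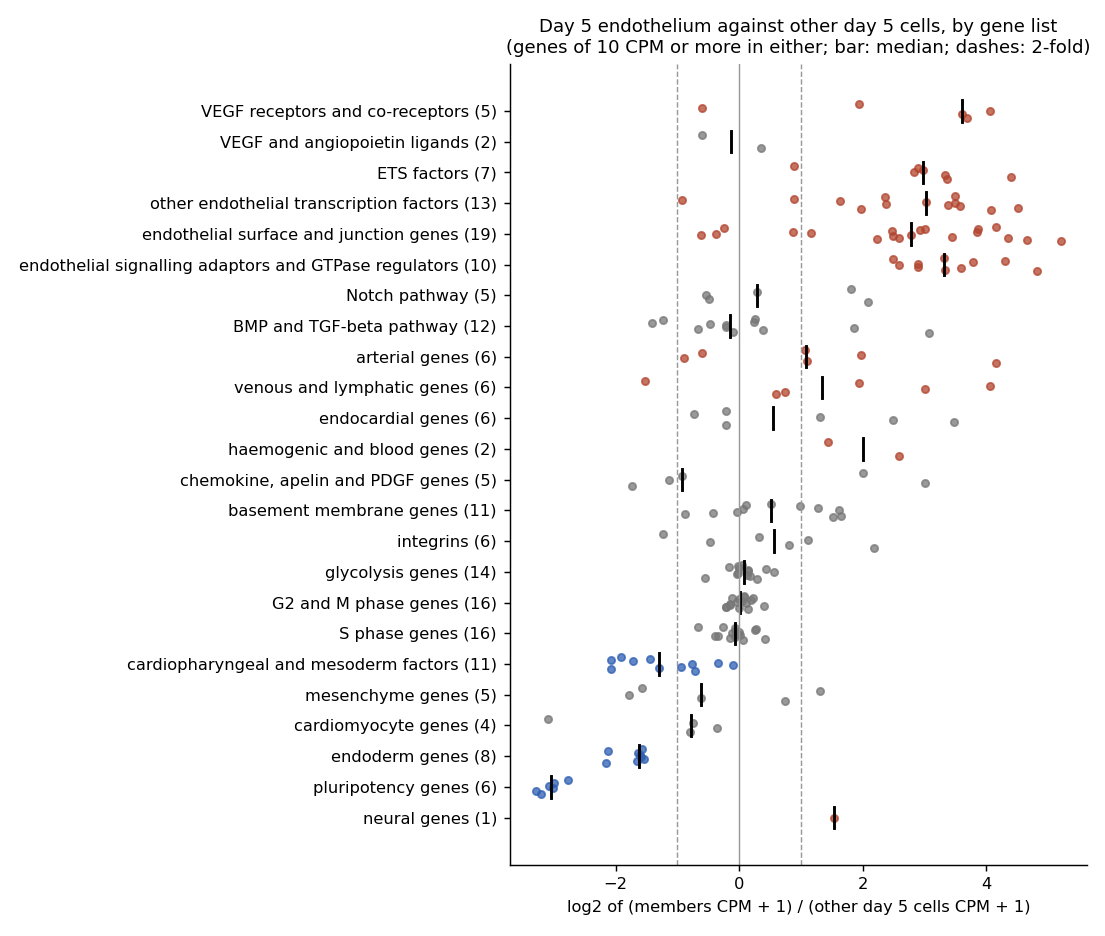
log2 of the ratio of members to the other day 5 cells (horizontal axis, after adding 1 CPM to both), 1 point a gene, for each list with genes of 10 CPM or more in either (number in brackets). Black bars are medians, dashed lines 2-fold, and points are red where the median is above 1 and blue where it is below -1. The ETS factors have a median of 2.98, the phase lists lie around 0 and the pluripotency genes have a median of -3.04. The pluripotency list includes *Pou5f1*, whose limit was part of the rule.

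Surface and junction genes were represented by 19 of 26 genes at 10 CPM or more, 13 of them only in members, and 15 were at least 2-fold higher (median log2 ratio 2.78, and 2.53 over all 26). *Egfl7*, a secreted endothelial factor, was found in every member, with 2 to 102 UMIs and a median of 21.0, and stood at 557.6 against 92.7 CPM (ratio 6.01, 5.83 to 6.20). *Ramp2*, the partner of the adrenomedullin receptor, was at 358.9 against 24.2 CPM (14.9, 14.2 to 15.5) and *Ecscr*, an endothelial surface protein, at 190.8 against 8.42 (22.7, 21.2 to 24.2). *Cldn5*, the tight junction protein of vessels, was uneven among members. *Cldn5* was at 87.4 against 1.39 CPM (62.9, 55.2 to 71.8), yet 97 members had no UMI and the richest had 37. *Icam2* was 87.2-fold higher (68.7 to 111.6) and *Cd93* 90.8-fold (59.4 to 143.0). The sialomucin *Cd34* was at 8.39 CPM, and *Clec14a*, a C-type lectin of vessels, had no UMI in any member, which allows a level of up to 0.314 CPM. A count of 0 also allows a UMI in up to 1.45% of members, and at this depth it sets no limit on the share of cells that express the gene.

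10 of the 13 signalling adaptors and GTPase regulators reached 10 CPM, and 9 of these 10 did so only in members and could not have been lower. All 10 were at least 2-fold higher, with a median log2 ratio of 3.32, and the median over all 13 was 2.90. *Rasip1*, needed for lumen formation, was at 61.7 against 1.22 CPM (50.7, 43.9 to 58.7), *Grap* at 37.0 against 0.936, *Rasgrp3* at 29.0 against 1.19 and *Arap3* at 63.4 against 4.35. *Tspan18* had the smallest ratio of these 10, at 6.33 (5.89 to 6.79).

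Genes of vessel subtypes were mixed. Of 12 arterial genes 6 reached 10 CPM, 3 of them only in members (median log2 ratio 1.09, and 0.07 over all 12), and 4 were higher: the connexin *Gja4* (34.9 against 1.02 CPM), *Sox17*, *Efnb2* (17.6 against 7.65) and *Mecom* (12.2 against 5.27). The connexin *Gja5* and the kinase *Bmx* had no UMI in members, and the Notch ligand *Dll4* was at 2.62 CPM. Of 9 venous and lymphatic genes 6 reached 10 CPM, 2 of them only in members (median 1.34, and 0.74 over all 9). Of these, 3 were higher, namely *Aplnr*, *Flt4* and *Nrp2*. The venous factor *Nr2f2* was at 24.5 against 15.8 CPM and *Lyve1* was found in 3.38% of members. *Pdpn* was lower, at 6.39 against 20.2 CPM. Of 10 endocardial genes 3 of the 6 that reached 10 CPM were higher (median 0.54, and 0.83 over all 10): *Hapln1* (30.6 against 1.85), *Plvap* (34.6 against 5.32) and *Nrg1* (11.3 against 4.02). All 3 reached 10 CPM only in members and could not have been counted as lower. *Nfatc1* was at 7.13 CPM and *Npr3* at 0.839.

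Genes of the signalling pathways gave a mixed picture. 2 of the 5 Notch genes at 10 CPM or more were higher, *Notch1* at 64.9 against 14.5 CPM and the feedback inhibitor *Nrarp* at 21.4 against 5.38. *Hes1* was at 125.9 against 102.7 (median of the 5 log2 ratios 0.29, and 0.00 over all 15 of the list). 1 of the 5 reached 10 CPM only in members. In the BMP and TGF-beta list 2 of 12 were higher (median -0.15, and -0.10 over all 15), the endothelial receptors *Acvrl1* (42.1 against 4.13, ratio 10.2) and *Tgfbr2* (16.1 against 3.75). Both reached 10 CPM only in members. 2 were lower, *Id2* at 71.2 against 190.2 and *Bmp4* at 31.3 against 74.7. Of the chemokine, apelin and PDGF genes *Aplnr* (20.1 against 1.63) and *Pdgfb* (12.0 against 2.22) were higher, and *Apela* and *Ackr3* were lower (median of the 5 at 10 CPM or more -0.92). 4 of 11 basement membrane genes were higher, *Col4a1* (125.8 against 43.5), *Col4a2*, *Nid1* and *Hspg2*, and none was lower (median 0.52, and 0.52 over all 13). None of the 11 reached 10 CPM only in members. Of the 6 integrins at 10 CPM or more *Itga3* and *Itga9* were higher and *Itgb5* was lower (median 0.56, and 0.26 over all 12). 3 of these 6 reached 10 CPM only in members.

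Most blood genes stayed under 10 CPM. Of 18 haemogenic and blood genes only *Itga2b*, which encodes CD41, and the receptor *Kit* reached 10 CPM, at 15.6 against 1.77 and 28.1 against 9.78 CPM. Both did so only in members, and the median log2 ratio was 2.01 for these 2 genes and 0.02 over all 18. 6 genes had no UMI in members: *Ptprc*, *Gata1*, *Klf1*, *Hbb-bh1*, *Hba-x* and *Hbb-y*. *Runx1*, which opens the haemogenic programme, was at 5.66 CPM in members and 6.51 in the other cells (ratio 0.870, 0.650 to 1.14). It was detected in 21.7% of members, 15.7% of the other cells and 25.8% of the background class, or in 3.86%, 3.62% and 4.76% after thinning. The share was larger in the background class than in the other cells. Whether cells of that class make *Runx1* themselves was not tested, so the class gives no background level for it. The 45 members with a *Runx1* UMI were deeper than the other 162, with medians of 46281.0 and 36650.5 UMIs. They held 33.7 against 17.2 CPM of *Epcam* and 56.2 against 97.4 CPM of *Cldn5*. Their *Dppa5a* level was 2.14 times that of the other members. Their *Spink1* level was 75.6 CPM against 28.5. This gene was at 371.2 CPM in the 13 members with at least 3 of the 5 epithelial genes and 2.22 in the other 194. The part of those 13 cells in this split was not tested.

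Cell cycle and glycolysis genes were at like levels in members and the other cells. All 16 S phase genes, all 16 G2 and M phase genes and all 14 glycolysis genes at 10 CPM or more were within 2-fold, with median log2 ratios of -0.06, 0.02 and 0.08. *Mki67* was at 91.9 against 82.9 CPM, *Pcna* at 231.7 against 229.9 and *Gapdh* at 3306 against 2979.

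Outside the lists, the 25 genes with the largest log2 ratios (after adding 1 CPM) among those of at least 20 CPM and in at least 20% of members were led by *Ctla2a*, an inhibitor of cathepsins, at 921.8 against 10.7 CPM (86.4, 82.6 to 90.4). Members held 0 to 556 *Ctla2a* UMIs with a median of 19.0, and 24 members held none. Its neighbour in name *Ctla2b*, a close sequence relative whose reads may be shared with it, was at 63.3 against 0.997 CPM. *Ucn*, the peptide hormone urocortin, was at 26.6 against 0.543 CPM (49.0, 39.4 to 61.3) in 33.8% of members. The junctional protein gene *Myzap* was at 37.4 against 0.834 CPM, and *Tnfaip2* and *Dysf* were 26.1- and 31.7-fold higher. The phosphatase gene *Dusp2* was at 95.7 against 6.41 and the transcriptional co-repressor *Cbfa2t3*, a partner of the Tal1 complex, at 51.8 against 6.73. Other genes of this set were *Gm13889*, *Exoc3l4*, *Car8*, *Abi3*, *Afap1l1*, *Gng11*, *Csgalnact1*, *Arhgap31*, *Klhl6*, *Scarf1*, *Edil3*, *Sgk1*, *Lat*, *Zfp711*, *Tcim* and *Vamp5*, with ratios from 7.31 to 17.6.

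Other sets were lower in members. Of 19 cardiopharyngeal and mesoderm factors 11 reached 10 CPM, and 7 were at least 2-fold lower and none higher (median log2 ratio -1.30). *Hand1*, a factor of lateral and extraembryonic mesoderm, was at 51.7 against 219.8 CPM (0.235, 0.215 to 0.257), with 0 to 23 UMIs in single members and 120 members without any. *Hand2* was at 24.1 against 60.8, *Msx2* at 16.1 against 63.9 and *Prrx2* at 12.4 against 55.3. *Gata6* (50.9 against 54.8) and *Twist1* (70.8 against 90.5) were within 2-fold. Among the 5 mesenchyme genes at 10 CPM or more (median -0.62) *Snai2* and *Cdh11* were lower, *Zeb2* was higher (61.0 against 24.2) and *Vim* was at 2093 against 1255. *Col3a1*, *Lum*, *Dcn* and *Postn* had no UMI in members. Of the cardiomyocyte genes 4 reached 10 CPM (median -0.78) and *Actc1* was lower, at 0.419 against 11.1, with *Tnni1*, *Tnnc1* and *Myl7* within 2-fold. No somitic gene reached 10 CPM, and of the neural genes only *Nes*, an intermediate filament also made by young endothelium, did, at 36.3 against 11.9.

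All 8 endoderm genes and all 6 pluripotency genes at 10 CPM or more were at least 2-fold lower, with median log2 ratios of -1.62 and -3.04. The pluripotency list includes *Pou5f1*, whose limit was part of the rule, so its value restates the choice. *Epcam* was at 21.2 against 97.4 CPM, *Krt18* at 115.2 against 360.4 and *Dppa5a* at 38.4 against 329.5. Part of what remained of them lay in a few cells. The 13 members with at least 3 of the 5 epithelial genes had a median of 80716 UMIs, against 36760 in the other 194, and held 64.4% of the members' *Epcam* UMIs, 57.8% of *Krt18*, 31.2% of *Krt8*, 50.5% of *Dppa5a* and 90.8% of *Cldn7*. *Epcam* and *Cldn7* were among the genes that chose these 13 cells, so their shares restate the choice. *Krt18* was at 651.1 CPM in the 13 and 54.2 in the 194, and *Etv2* at 44.1 and 156.3. Without the cells of highest doublet score, the ratio of members to the other cells was 0.162 for *Epcam*, 0.186 for *Krt18* and 0.227 for *Krt8*. With them it was 0.217, 0.320 and 0.329. The part of cell pairs in the 13 cells was not tested.

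Among genes outside the lists with at least 100 CPM in the other cells, the 15 lowest ratios ran from 0.222 to 0.539, and 12 of the 15 were at least 2-fold lower. The lowest was *Phlda2*, an imprinted growth regulator, at 50.8 against 228.8 CPM (0.222, 0.203 to 0.243). It was followed by *Ifi30* (34.1 against 134.5), the glypican *Gpc3* (73.1 against 248.5), *Cd24a* (65.2 against 219.1), *Ldhb* (49.6 against 156.2), and the imprinted genes *Dlk1* (135.9 against 404.2) and *Cdkn1c* (56.4 against 168.1). *Mkrn1*, *Emb*, *Gsta4*, *Wfdc2* and *Mt2* had ratios of 0.379 to 0.458, and *Csrp2*, *Grb10* and *Prtg* were within 2-fold.

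Levels were graded with the number of rule genes, and the cells just outside the rule are given beside those just inside it. Of the members, 95 held 3 rule genes, 55 held 4 and 57 held 5 or 6. 124 cells held 2, 752 held 1 and 6323 held none. The limit on *Pou5f1* was applied only to the groups with 3 or more rule genes. It kept 2 cells out of those groups, and these are in no group here. *Kdr* stood at 175.0 CPM in cells with 2 rule genes, 199.3 with 3, 247.9 with 4 and 310.6 with 5 or 6. *Cldn5* was at 36.4, 53.2, 106.1 and 118.3 CPM in the same order, *Icam2* at 6.94, 18.5, 29.5 and 58.0, and *Ctla2a* at 270.3, 508.6, 867.2 and 1519. *Etv2* took another course. It was at 8.40 CPM in cells without a rule gene, 23.8 with 1, 124.0 with 2 and highest at 179.1 with 3, and then 118.4 with 4 and 120.2 with 5 or 6. *Tal1* was nearly level from 2 rule genes on, at 56.3, 56.8, 53.3 and 64.6 CPM. *Hand1* was at 95.8, 71.6, 59.8 and 18.4 CPM, and *Krt18* at 201.1, 187.8, 94.7 and 34.6. *Dppa5a* was at 503.5 CPM with 2 rule genes, 50.2 with 3, 4.51 with 4 and 49.7 with 5 or 6. The part of the *Pou5f1* limit in the step from 2 to 3 rule genes was not tested. Median depth was 36490.5 UMIs with 2 rule genes, 34726.0 with 3, 36820.0 with 4 and 51148.0 with 5 or 6. The share of cells with a top doublet score was 21.8%, 24.2%, 16.4% and 7.02%. Their part in these gradients was not tested.

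**Figure D3:**
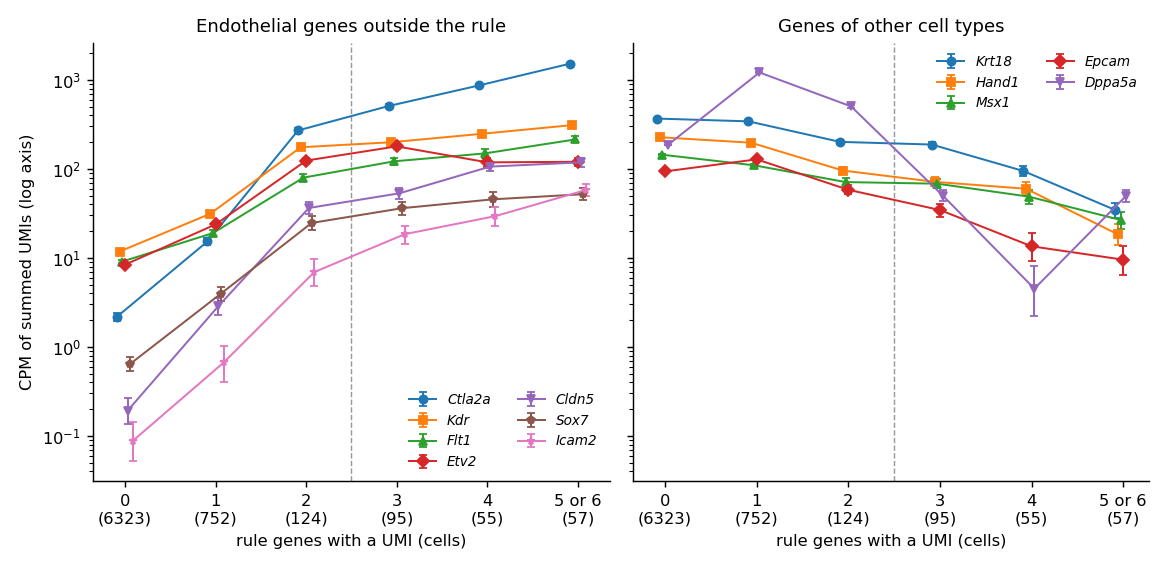
CPM of summed UMIs (vertical log axis, exact Poisson 95% intervals) in day 5 cells grouped by the number of rule genes with a UMI (horizontal axis, cells in brackets). Cells right of the dashed line are members, and only these were held to the limit on *Pou5f1*. *Cldn5* and *Icam2* were highest in the group with 5 or 6, *Etv2* was highest at 3, and *Dppa5a* peaked at 1211 CPM among cells with 1 rule gene.

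Most cells with a single rule gene held *Pecam1*. Of these 752 cells 65.4% held it. The gene is also made by pluripotent cells, and these 492 cells carried 1649 CPM of *Dppa5a*, a marker of naive pluripotency, against 99.1 CPM in the 28 cells whose single gene was *Cdh5*, 178.5 with *Tie1* and 305.1 with *Esam*. By contrast, among the 124 cells with 2 rule genes *Esam* (67.7%) and *Cdh5* (42.7%) were the commonest.

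A set of 8 endothelial genes outside the rule (*Sox7*, *Sox18*, *Fli1*, *Tal1*, *Cldn5*, *Icam2*, *Rasip1* and *Plxnd1*) was chosen after their values were seen. It describes the same gradation and is no separate check of it. At least 3 of the 8 were detected in 192 members (92.8%, 88.3 to 95.9) and in 183 other cells (2.54%, 2.19 to 2.93). Of those 183 cells 81 held 2 rule genes, 62 held 1 and 38 held none. The rest held at least 3 rule genes but also 3 or more *Pou5f1* UMIs. The share of cells with 3 of the 8 was 0.601% without a rule gene, 8.24% with 1, 65.3% with 2 and 86.3% with 3. Cells with this profile were thus found on both sides of the threshold.

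Splits of the members by single genes gave small groups. The 21 members without an *Etv2* UMI were as deep as the 186 with one (medians 37614.0 and 37844.0) and differed in several genes. *Cldn5* was at 15.2 CPM in the 21 and 94.5 in the 186, *Sox18* at 10.5 and 48.7, *Lmo2* at 77.3 and 160.0 and *Kdr* at 152.3 and 256.5. *Hand1* was at 105.4 and 46.4 CPM, *Epcam* at 62.1 and 17.2 and *Krt8* at 324.5 and 147.9, whereas *Dppa5a* was at 4.69 in the 21 and 41.7 in the 186. *Spink1* was at 116.0 CPM in the 21 and 32.5 in the 186. In the 13 members rich in epithelial genes and the other 194, *Spink1* was at 371.2 and 2.22 CPM and *Cldn5* at 3.08 and 97.0. *Dppa5a* was higher in those 13 (189.7 against 21.1) and *Hand1* was alike (48.2 against 52.1). The part of those 13 cells in this split was not tested. The 118 members with a *Gja4* UMI had a median depth of 38519.0 against 36513.0 in the other 89, and held more *Fli1* (68.0 against 39.2 CPM), *Kit* (34.6 against 17.8), *Tal1* (68.2 against 42.9) and *Ucn* (35.1 against 13.2). They also held more *Dppa5a* (53.1 against 15.1, a ratio of 3.51, 2.63 to 4.76), and its part in these differences was not tested. The 54 members with *Nfatc1* were deeper (48345.5 against 36700.0 UMIs) and held less *Msx1* (32.6 against 57.4) and *Dppa5a* (17.2 against 47.4) and more *Nes* (50.8 against 30.1). Cells of 1 library are not replicates, so these are values of these cells only.

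To place the day 5 cells in time, the same rule was applied to the other libraries. It found 4 of 7202 cells at day 4 (0.0555%), 491 of 5850 at day 6 (8.39%, 7.69 to 9.13) and 580 of 8730 at day 11 (6.64%, 6.13 to 7.19). After thinning to 5000 UMIs the shares were 0, 5.41% and 4.91%, against 0.276% at day 5. All 6 rule genes were held by 69.0% of day 6 members and 0.483% of day 5 members. These values restate the choice, and *Emcn* alone was held by 87.6% and 2.42%. At day 5 the rule thus rested almost wholly on the other rule genes, so the shares of members by day are not on a like footing. Median depth was 38714.0 UMIs in day 6 members and 37630.0 in day 5 members. Of 8332 genes that reached 10 CPM in day 5 or day 6 members, 1180 (14.2%) were at least 2-fold higher at day 6 and 349 (4.19%) at least 2-fold lower, with a median log2 ratio of 0.17. A gene that reached 10 CPM only at day 6 could not have been counted as lower, and one that did so only at day 5 could not have been counted as higher. This also holds for the counts by list that follow. The other cells also differed between these days, so their day 6 to day 5 ratio is set beside that of the members.

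*Etv2* and *Tal1* were higher at day 5, but most other factors were not. Of 8 ETS factors at 10 CPM or more on either day, 4 were at least 2-fold higher and 1 was lower at day 6. Of 16 other endothelial transcription factors 9 were higher and 1 was lower. Over all genes compared, 14.2% were higher and 4.19% lower. *Etv2* went from 144.9 CPM at day 5 to 32.9 at day 6 and 1.11 at day 11, and its share of positive members from 89.9% to 47.0% and 2.59%. Its day 6 to day 5 ratio was 0.227 (0.207 to 0.248) in members and 0.396 in the other cells. *Tal1* stood at 58.4, 24.1 and 13.7 CPM at days 5, 6 and 11, and its ratio was 0.412 in members and 0.197 in the other cells. *Gadd45g*, a growth arrest gene, was at 344.0 CPM at day 5 and 29.3 at day 6, 11.7-fold higher at day 5 (10.8 to 12.8), beside a day 6 to day 5 ratio of 0.227 in the other cells. At day 5 *Gadd45g* was 4.66-fold higher in members than in the other cells and was found in 205 members, with 0 to 59 UMIs and a median of 13.0. *Ucn* was at 26.6 CPM at day 5 and 1.53 at day 6, a ratio of 0.0573 beside 0.0117. *Gadd45g* was 1 of the 10 genes outside the lists with the largest day 5 excess, and the others were lower at day 6 in members and in the other cells alike. *Mt2* and *Mt1*, which encode metallothioneins, were 112.5- and 10.4-fold higher at day 5 in members, and the day 6 to day 5 ratio of the other cells was 0.0225 and 0.112. The germ cell genes *Rbmxl2* and *Sycp3* had day 6 to day 5 ratios of 0.0110 and 0.0273 in members and 0.0531 and 0.0258 in the other cells. *Shisa4*, *Slc16a6*, *Fam122b*, *Slc27a3* and *Wfdc2* completed this set, with ratios from 0.0739 to 0.141 in members and from 0.118 to 0.185 in the other cells.

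Many surface and endocardial genes were higher at day 6. *Emcn* went from 0.524 CPM (5 UMIs) to 193.7, a ratio of 369.6 (158.3 to 1139) beside 176.4 in the other cells, and from 2.42% to 87.6% of members, although day 6 members were also chosen by this gene among others. *Clec14a* had no UMI in day 5 members and was at 65.8 CPM at day 6, at least 209.2-fold higher against a floor of 3 counts over the group (the exact 95% interval starts at 169.9), beside 12.1 in the other cells. *Npr3*, of the endocardium, was at 0.839 and 86.1 CPM, a ratio of 102.7 (52.0 to 238.2) beside 4.82 in the other cells. *Klf2* was at 8.81 and 140.6, a ratio of 16.0 (12.9 to 20.1) beside 0.401. *Mef2c* was at 15.3 and 185.6, a ratio of 12.1 beside 31.0 in the other cells. *Plvap* was at 34.6 and 324.9 CPM (ratio 9.39 beside 2.04), *Hapln1* at 30.6 and 263.3 (8.60 beside 15.7), *Cd34* at 8.39 and 87.0 (10.4 beside 2.70), *Calcrl* at 12.4 and 116.5 (9.42 beside 3.46) and *Eng* at 23.6 and 127.9 (5.42 beside 0.774). For *Mef2c* and *Hapln1* the ratio was thus larger in the other cells than in members. By list, 18 of 24 surface and junction genes, 9 of 9 endocardial genes, and 7 of 8 arterial genes were at least 2-fold higher at day 6, beside 14.2% of all genes compared. Genes such as *Clec14a*, *Npr3* and *Cd34* were under 10 CPM at day 5. They entered only through day 6 and could not have been counted as lower. All 10 cardiomyocyte genes were higher too, among them *Myl7* at 10.8 and 493.9 CPM, beside 18.9 and 1133 in the other cells. Doublet scores and the background class were made for day 5 only. The part of cell pairs and free RNA in the day 6 levels was not tested.

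Outside the lists, the 10 genes with the largest day 6 excess, by log2 ratio after adding 1 CPM, were *Sparcl1*, *Acta2*, *Ldb2*, *Madcam1*, *Cav1*, *Gimap6*, *Pcdh17*, *Igfbp5*, *Ptn* and *S100a16*. *Sparcl1*, a matrix-associated protein, had no UMI in day 5 members and was at 108.2 CPM at day 6 (at least 344.1-fold higher against this floor, with an exact interval from 279.5, beside 40.9 in the other cells), and *Madcam1*, an adhesion molecule for leukocytes, at 50.6 (at least 160.9-fold, interval from 130.5, beside 0.261). *Ldb2* and *Cav1*, which encodes caveolin 1, had 2 and 3 UMIs at day 5, with ratios of 409.8 (113.3 to 3386) and 202.1 (69.0 to 981.0), beside 25.2 and 1.90. For *Acta2*, *Igfbp5* and *Ptn* the other cells were at higher levels than members at day 6. Several endothelial genes differed by less than 2-fold between day 5 and day 6 members. The ratio of day 6 to day 5 was 1.36 (1.30 to 1.42) for *Kdr* beside 1.08 in the other cells, 1.41 for *Flt1* beside 0.284, 1.31 for *Fli1* beside 2.16, 1.45 for *Sox7* beside 0.270 and 0.916 for *Egfl7* beside 0.548.

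**Figure D4:**
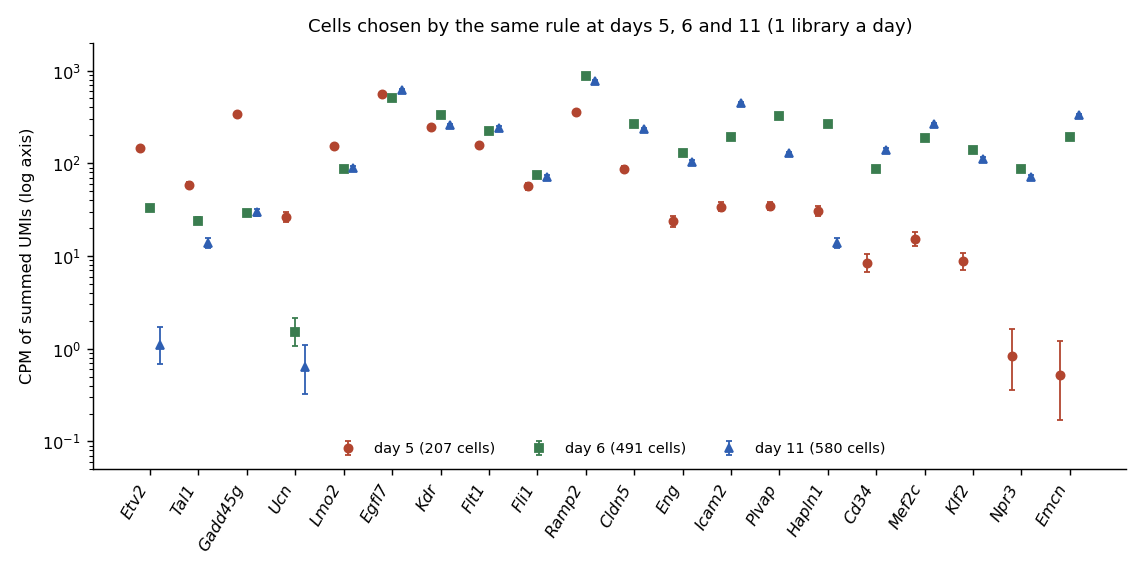
CPM of summed UMIs (vertical log axis, exact Poisson 95% intervals) in cells chosen by the same rule at day 5 (circles), day 6 (squares) and day 11 (triangles), 1 library a day. *Etv2* was highest at day 5 (144.9 CPM) and lowest at day 11 (1.11), *Kdr* lay between 247.2 and 335.8 CPM at all 3 days, and *Emcn* was at 0.524 CPM at day 5 against 193.7 at day 6.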

How the data were processed

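The authors deposited UMI counts per gene and barcode for each library, made with Cell Ranger (3.1.0 in the submitters' processing notes, 3.1.0 and 6.0.1 in the matrix headers) on mm10. The counts were used without correction or removal of doublets. Cells with at least 2000 UMIs and a mitochondrial share under 20% were kept. UMIs were summed over members and over the other cells and divided by their total (CPM). A gene was compared where it reached 10 CPM in either group and called at 2-fold. With 1 library a day there were no replicates and no test. Intervals are exact (Poisson, Clopper-Pearson or conditional binomial, 95%), and a count of 0 allows up to 3 counts. The calling step was tested on simulated data. Doublet scores came from 100 neighbours among simulated doublets in 30 principal components.

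The members, the rule and the 26 gene lists were chosen with earlier results of these data known. 1 list gene, whose symbol names 2 features, was left out. Named genes were list genes, the 25 highest outside the lists (at least 20 CPM and in at least 20% of members), the 15 lowest (at least 100 CPM in the other cells) and the 10 highest and 10 lowest between days 5 and 6 (at least 50 CPM in either). 1 of the 25 is not reported here. Alternatives changed the rule, filters, scaling, CPM minimum, doublet handling and comparison cells. Promoter windows are from RefSeq (GRCm38.p6, the assembly of mm10), matched by symbol. Python 3.11.15, numpy 2.4.6, scipy 1.17.1 and scikit-learn 1.9.0 were used.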

Additional observations from a re-analysis of the deposited data

Results flagged for a closer look

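*Zeb2*, a repressor active in mesenchyme, stood out among the list genes that reached 10 CPM at day 5: no other was at least 2-fold higher in members at day 5 and at least 2-fold lower at day 6 or 11, or the reverse. The ratio of members to the other cells was 2.52 at day 5 (61.0 against 24.2 CPM) and 0.372 at day 11 (61.4 against 164.9 CPM). The level in members was alike at both days and that of the other cells was not. With 1 library a day the difference was not tested.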

How the results depend on the processing

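The share of members followed the rule. It was 4.31% when 2 rule genes were enough, 1.51% when 4 were needed and 0.276% after thinning to 5000 UMIs, against 2.79% as reported. When a rule gene counted only with at least 2 UMIs, and at least 3 such genes were needed, it was 1.21%. It was 2.82% without the limit on *Pou5f1*, 2.51% without the highest doublet scores and 2.75% with further filters on cells. Thinning gave 0 for day 4, 5.41% for day 6 and 4.91% for day 11, as against 0.0555%, 8.39% and 6.64%. The number of higher genes lay between 273 and 394 and of lower genes between 224 and 367 under every change of cells or scaling. A minimum of 5 CPM gave 416 higher and 461 lower genes, and one of 20 CPM gave 198 higher and 123 lower. A set of 39 named genes, picked by hand and many with large ratios, was followed under 9 alternatives. Other genes called near 2-fold, such as *Efnb2*, *Mecom* and *Zeb2*, were not followed, so the result does not cover every call. All 351 values kept their side of 1, and the 38 genes past 2-fold stayed past it. Sizes moved more. Against cells without any rule gene the ratios were larger: *Cldn5* 452.1 in place of 62.9, *Ctla2a* 422.0 in place of 86.4, *Icam2* 381.1 in place of 87.2, *Sox18* 184.4 in place of 43.7, *Fli1* 92.9 in place of 32.3, *Etv2* 17.2 in place of 11.0 and *Kdr* 21.0 in place of 13.6. Genes of other cell types moved too: *Dppa5a* was 0.116 of the other cells as reported and 0.0174 among cells of 20000 to 60000 UMIs, a range chosen after seeing the data, and *Epcam* was 0.217 and 0.0863 without the 13 members rich in epithelial genes. Without the highest doublet scores *Hand1* was 0.100 in place of 0.235, *Prrx2* 0.0951 in place of 0.224 and *Phlda2* 0.0833 in place of 0.222. *Etv2* was then 14.2-fold higher in place of 11.0. No replicate could be left out and no paired analysis was possible because each day has 1 library. Depth limits rare genes: a gene with no UMI in members may stand at up to 0.314 CPM.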
